A study of Mus musculus with 4 samples.

Results

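Complement is a cascade of plasma proteins that tags targets for uptake, releases inflammatory fragments and can lyse cells. It starts through the classical pathway, when C1q binds antibody or cell debris, through lectins, or through the alternative pathway, and all routes meet at C3. The liver makes most plasma complement, but tissue macrophages are the main source of C1q, and myeloid cells in tumors make several of the other proteins. The genes described here are 7 of the 32285 listed in the count matrices, and they were taken by name: C1qa, C1qb and C1qc, whose products are the 3 chains of C1q; C3, the central component; Cfb, factor B, the protease subunit of the alternative pathway convertase; Cfp, properdin, which stabilizes that convertase; and C3ar1, the receptor for the C3a fragment.

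The genes were followed in CD45+ cells sorted from subcutaneous tumors of C57BL/6 mice. KPC, a murine line of pancreatic cancer, had been implanted to raise these tumors. The groups had no treatment, or were given the STING agonist ADU-S100, a synthetic cyclic dinucleotide, into the tumor, or 4H8, an agonist antibody to the lymphotoxin beta receptor (LTbR), into the peritoneum, or both. Tumors of a group were pooled before the sort and sequenced as 1 library, so each of the 4 groups is 1 library of a single transplanted line, no difference below has a replicate check, and no p-value is given. Intervals cover counting error only, and those of levels and shares are exact at 95%. In the order untreated, STING agonist, LTbR agonist and combination, 6783, 3748, 7147 and 5333 cells passed the filters, with a median of 7094, 6748, 5750 and 5877 UMIs (unique molecular identifiers, the count of captured transcripts) per cell. Values below are given in this order.

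Cells were clustered without the complement genes, so a cluster's complement level was not part of its definition. Of 23011 cells, 9417 were macrophage- or monocyte-like, 973 neutrophil-like, 1604 dendritic-like and 7626 T-like. Ptprc, which encodes CD45, had a UMI in 89.9 to 95.5% of the macrophage- or monocyte-like cells and in 84.5 to 89.4% of the neutrophil-like cells of a library. Cells of the macrophage- or monocyte-like, neutrophil-like and dendritic-like classes were then clustered again together, so the new clusters could cross classes. Macrophage and monocyte clusters, called by their markers, were Trem2 (1131 cells), Mrc1 (355 cells, of which 15 and 17 came from the untreated and STING agonist libraries), Nos2 (1763 cells), Cxcl9 (736 cells), monocyte-like (3432 cells) and non-classical monocyte-like (543 cells). Of the Nos2 cells, 1302 were led by Spp1, Ccl24 and Mmp12 and 461 by heat-shock genes (Hspa1b, Hspa1a). Interferon-induced genes (Rsad2, Ifit2, Ifit3) led 623 of the Cxcl9 cells, and Cxcl9 and Ccl5 led the other 113. The remaining clusters were left unnamed, among them 1 of 374 cells led by T and NK cell genes (Nkg7, Gzmb, Cd3g). Dendritic-like clusters were a Cd209a cluster of 969 cells, cDC1-like cells (119) and mature dendritic-like cells (392). Of the Cd209a cluster, 23, 11, 21 and 11 cells were in the macrophage- or monocyte-like class.

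The 3 C1q genes lie side by side on the minus strand of chromosome 4 (GRCm38): C1qb at 136880129 to 136886187, C1qc at 136889804 to 136893065 and C1qa at 136895917 to 136898803. C3 (57203970 to 57228136) and Cfb (34856374 to 34862518) are on chromosome 17, C3ar1 on chromosome 6 (122847138 to 122856161) and Cfp on chromosome X (20925454 to 20931555), all on the minus strand. A second protein-coding gene model, Gm20547, overlaps Cfb on the same strand and is not among the counted features, so the Cfb counts are uncertain in that overlap. Since the C1q genes moved together in the counts below, the promoters held for them are shown, from RefSeq (GRCm38.p6), 250 bases before to 50 after the start, 5′ to 3′ on the strand of the gene. The capitals mark GAGGAA or its reverse complement TTCCTC, the core bound by the myeloid factor PU.1.
C1qb, chr4:136886151-136886450: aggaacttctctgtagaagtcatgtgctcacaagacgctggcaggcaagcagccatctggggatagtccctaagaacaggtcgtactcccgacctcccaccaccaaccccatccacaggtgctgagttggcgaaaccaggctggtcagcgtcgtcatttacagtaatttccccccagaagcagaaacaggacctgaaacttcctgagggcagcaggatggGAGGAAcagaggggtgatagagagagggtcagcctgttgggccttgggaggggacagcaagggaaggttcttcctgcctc
C1qc, chr4:136892865-136893164: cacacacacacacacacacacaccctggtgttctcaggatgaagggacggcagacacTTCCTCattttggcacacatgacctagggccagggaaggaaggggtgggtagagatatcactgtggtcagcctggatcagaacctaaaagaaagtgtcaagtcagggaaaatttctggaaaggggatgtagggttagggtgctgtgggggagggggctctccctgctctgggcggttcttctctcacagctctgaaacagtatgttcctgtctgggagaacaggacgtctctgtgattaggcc
The first base of the motif is base 221 of the C1qb window and base 58 of the C1qc window. Searched on both strands, GAGGAA stood in the promoters of C1qb, C1qc and Cfp, of 5 members with an entry, and in 28.3% of all 32851 mouse promoters. The interferon response motif, GAAANN followed by GAAA, was in none of the 5, against 3.44% of all promoters. TGACTCA, the AP-1 motif, was in that of C3ar1, against 5.20% of all promoters, and TATAAA was in those of C3 and C3ar1, against 13.6%.

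Of the named clusters, Trem2 macrophage-like cells had the highest C1q level in every library, and levels were lower in steps towards monocytes. The summed level of the 3 chains in Trem2 cells was 7967, 9720, 7950 and 9868 CPM (UMIs of the gene scaled to the same total of UMIs in every sum of cells). Nos2 cells held 2923, 3986, 2345 and 2435 CPM, and Cxcl9 cells 1833, 2392, 1079 and 1884 CPM. No library of either set reached the lowest Trem2 value, whereas the ranges of Nos2 and Cxcl9 cells overlapped. Mrc1 cells, a resident type by their markers, held 1880 and 4542 CPM in the LTbR agonist and combination libraries, a range that covered the Nos2 values and overlapped that of Cxcl9 cells. Monocyte-like cells ranged from 312 to 1705 CPM and non-classical monocyte-like cells from 43.2 to 236 CPM in the 3 libraries with at least 50 such cells. An unnamed cluster of 525 shallow cells (median 1307 UMIs) held 5682 CPM over the 4 libraries.

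T-like cells, which do not make C1q, gave the level of free RNA and of misassigned cells. Their summed C1q was 73, 75, 144 and 172 CPM, and 8.43% of them had at least 1 C1q UMI at a median of 4616 UMIs per cell, against 50.7% of macrophage- or monocyte-like cells at a median of 8369. When each cell was thinned to 1000 UMIs, the share with a C1q UMI was 88.7% in Trem2 cells, 63.0% in Mrc1 cells, 48.8% in Nos2 cells, 33.3% in Cxcl9 cells, 20.2% in monocyte-like cells and 13.04% in the Cd209a dendritic-like cluster. It was 2.99% in T-like cells and 3.09% in neutrophil-like cells, so the C1q signal of neutrophils was not separable from background. The same held for cDC1-like cells (2.54%) and non-classical monocyte-like cells (3.24%).

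**Figure D1:**
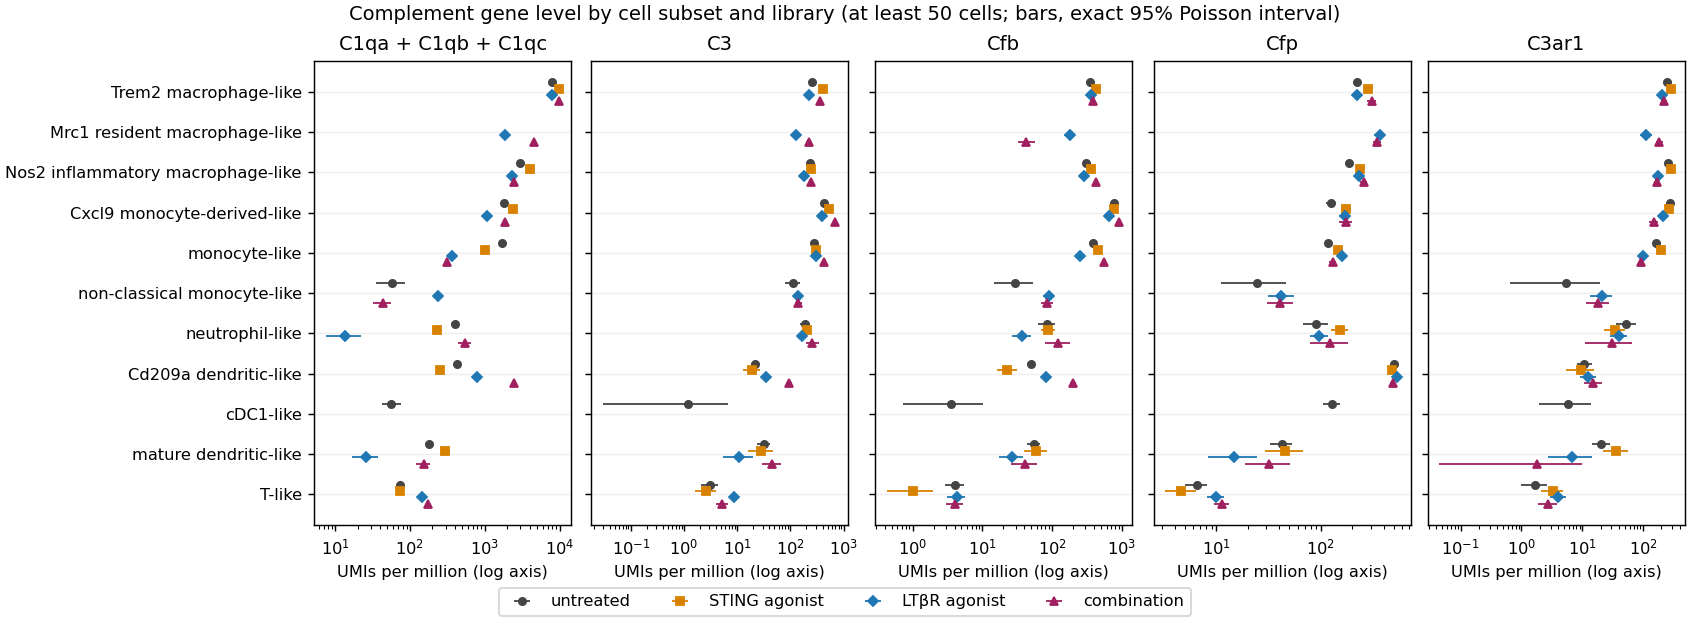
Level of each complement gene (CPM, log axis) in each myeloid cluster, with 1 point per library and exact Poisson 95% bars. Summed C1q lies between 7950 and 9868 CPM in Trem2 cells and is lower in steps to monocyte-like cells, whereas Cfp is highest in the Cd209a dendritic-like cluster, between 477 and 531 CPM.

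**Figure D2:**
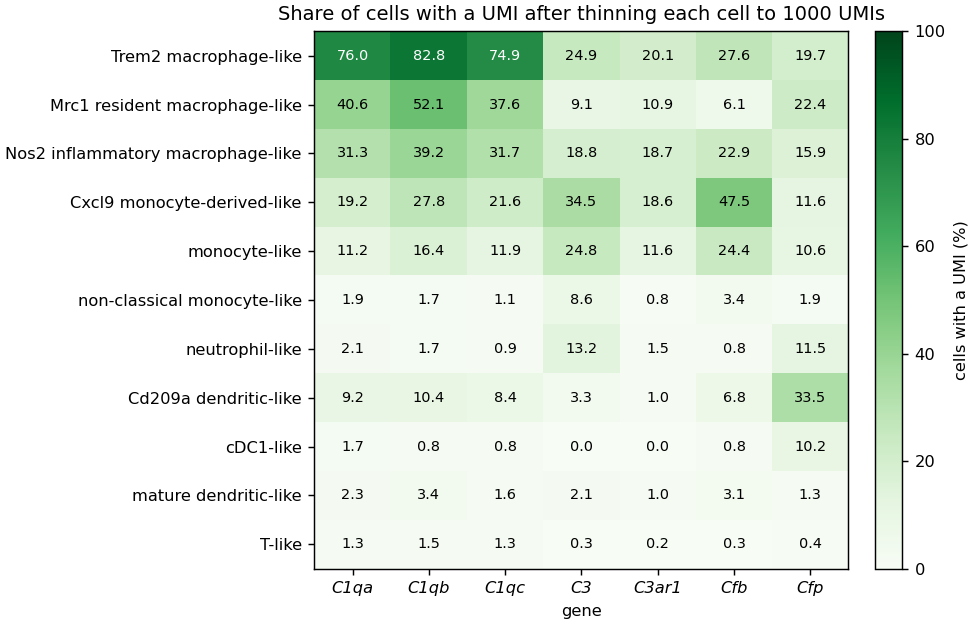
Share of cells (percent) with at least 1 UMI of each gene after thinning every cell to 1000 UMIs, over the 4 libraries, with T-like cells as the background. C1qb runs from 82.8% in Trem2 cells to 16.4% in monocyte-like cells and 1.51% in T-like cells, and Cfp is at 33.5% in the Cd209a dendritic-like cluster.

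The chains were found together in single cells. All 3 were seen in 86.6% of Trem2 cells, 49.6% of Mrc1 cells, 45.6% of Nos2 cells, 28.3% of Cxcl9 cells and 15.5% of monocyte-like cells, and in 0.852% of T-like cells. Of the C1q UMIs of macrophage- or monocyte-like cells, 30.7% were C1qa, 42.8% C1qb and 26.5% C1qc. The T-like cells had a like mix, at 32.2%, 38.9% and 29.0%. The C1qb share was 47.1% in monocyte-like cells, 46.8% in Cxcl9 cells and 45.1% in Nos2 cells, against 40.6% in Trem2 cells. A share of C1q UMIs says nothing of protein, since capture can differ between transcripts.

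Across the whole macrophage- or monocyte-like class, C1q was higher than untreated with the STING agonist and lower with the LTbR agonist. Summed C1q was 3260, 4016, 2060.4 and 2576 CPM. The ratio to untreated, on the log2 scale of CPM plus 10 used throughout, was 0.30 [0.28, 0.32] with the STING agonist, −0.66 [−0.68, −0.64] with the LTbR agonist and −0.34 [−0.36, −0.32] with the combination. The chains stayed close to one another: C1qa was 990, 1213, 638 and 820 CPM, C1qb 1412, 1750, 872 and 1050 CPM, and C1qc 858, 1053, 550 and 706 CPM. The share of cells with any C1q UMI was 57.0, 56.9, 43.1 and 47.4%. It differed less between the untreated and STING agonist libraries than the level did.

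All 7 genes passed the filter of a mean of 10 CPM in this class, and the number past a 1.5-fold difference is read against all 7389 genes that passed. With the STING agonist 0 of 7 members were past 1.5-fold, against 0.217% of the genes. With the LTbR agonist 3 were, C1qa, C1qb and C1qc, all lower, against 2.00%. With the combination 1 was, C3ar1, lower, against 3.33%. The median log2 ratio of the members was 0.29, −0.56 and −0.27, and that of all genes 0.01, 0.01 and 0.04. Since the 3 chains move as one, their count is closer to 1 observation than to 3.

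The mix of clusters differed between libraries, and the class ratios moved with it. Trem2 cells were 16.6, 19.1, 6.63 and 6.67% of the class and held 50.5, 58.9, 36.8 and 38.0% of its C1q UMIs. Within Trem2 cells summed C1q was 0.29 [0.26, 0.31] above untreated with the STING agonist, level with it for the LTbR agonist (−0.00 [−0.04, 0.03]) and 0.31 [0.27, 0.34] above it with the combination. The LTbR agonist library thus had a smaller share of Trem2 cells, at a like C1q level within them. Mrc1 cells took the opposite course in number, at 0.483, 1.14, 3.52 and 11.9% of the class, and held 14.8% of its C1q UMIs in the combination. In Nos2 cells the ratios were 0.45 [0.40, 0.50], −0.32 [−0.36, −0.27] and −0.26 [−0.32, −0.20]. In Cxcl9 cells they were 0.38 [0.30, 0.47], −0.76 [−0.87, −0.65] and 0.04 [−0.06, 0.14]. With the share of each subset held at 1 set of weights in every library, the class ratios were 0.18, −0.42 and −0.10, and 0 members were past 1.5-fold in any of the 3 comparisons. With the share of each single cluster held equal, an alternative added after seeing the data, they were 0.27, −0.19 and 0.04, so the sign of the combination changed.

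**Figure D3:**
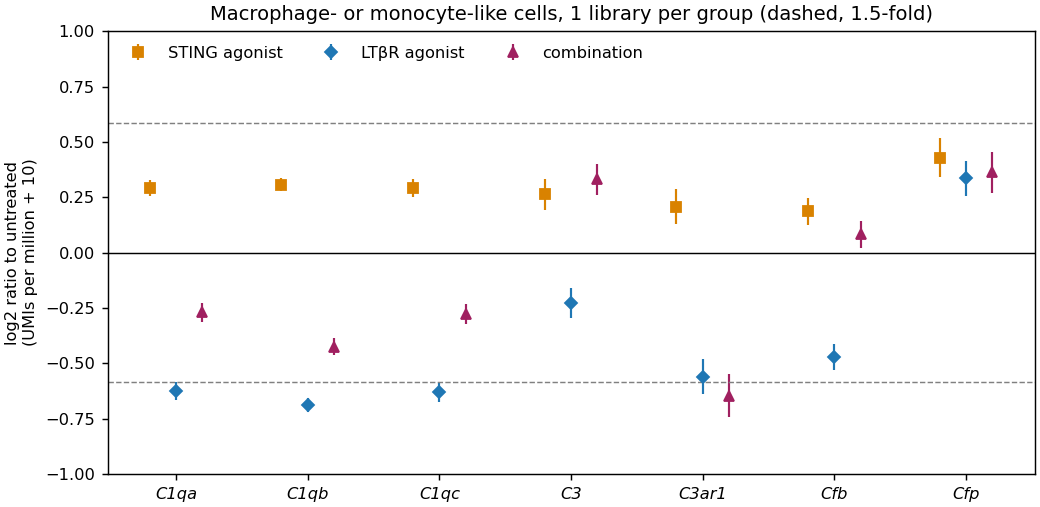
Log2 ratio to untreated of each gene in the macrophage- or monocyte-like class (CPM plus 10), for the STING agonist, the LTbR agonist and the combination, with counting intervals and the 1.5-fold lines. The C1q chains are past the line with the LTbR agonist and C3ar1 with the combination, while Cfp lies between 0.34 and 0.43 in all 3.

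Monocyte-like cells had larger C1q differences from untreated than Trem2, Nos2 or Cxcl9 cells, all of them downward. Summed C1q was 1705, 1020, 362 and 312 CPM in them, and the log2 ratios were −0.74 [−0.79, −0.68], −2.20 [−2.28, −2.13] and −2.41 [−2.51, −2.32]. The untreated library was highest and the groups given the LTbR agonist lowest. Of the 7 members, 3 were past 1.5-fold with the STING agonist, all C1q chains and all lower, against 0.948% of the 7065 genes tested in these cells. With the LTbR agonist 4 were, the C1q chains and C3ar1, all lower, against 3.16%. With the combination 5 were, the same 4 lower and C3 higher, against 5.08%. The median log2 ratio of the members was 0.11, −0.69 and −0.75, against 0.00, 0.02 and 0.04 for all genes.

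In every library but the combination, most of this C1q sat in 1 cluster of monocyte-like cells, cluster 14, led by Ccl5, Grina, Ecm1, Ccr2 and Ly6i. It held 587, 126, 62 and 34 cells, which is 42.1, 22.6, 6.51 and 6.45% of the monocyte-like cells, and 86.2, 78.2, 53.5 and 29.4% of their C1q UMIs. In the untreated library its monocyte markers were at the level of cluster 1, the largest monocyte-like cluster: Ly6c2 at 1627 against 1662 CPM and Ccr2, the chemokine receptor of inflammatory monocytes, at 913 against 954 CPM. Its macrophage genes were higher, with Apoe, a lipid carrier, at 2250 against 916 CPM and Ms4a7 at 162 against 37.0 CPM. Within cluster 14 summed C1q was 3408, 3602, 2973 and 1603 CPM, with ratios of 0.08 [0.02, 0.14], −0.20 [−0.29, −0.10] and −1.08 [−1.24, −0.93], the last from 34 cells. Within cluster 1 it was 583, 402, 292 and 294 CPM, with ratios of −0.53 [−0.66, −0.39], −0.97 [−1.11, −0.84] and −0.97 [−1.12, −0.82]. Cluster 1 held 56.3% of the C1q UMIs of monocyte-like cells in the combination. Cluster 11 was at 28.2 to 130 CPM, which is within the T-like range or below it. Without cluster 14, chosen after its values were seen, the ratios of the monocyte-like cells were −0.52, −1.15 and −0.80, lower in all 3 but by less.

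**Figure D4:**
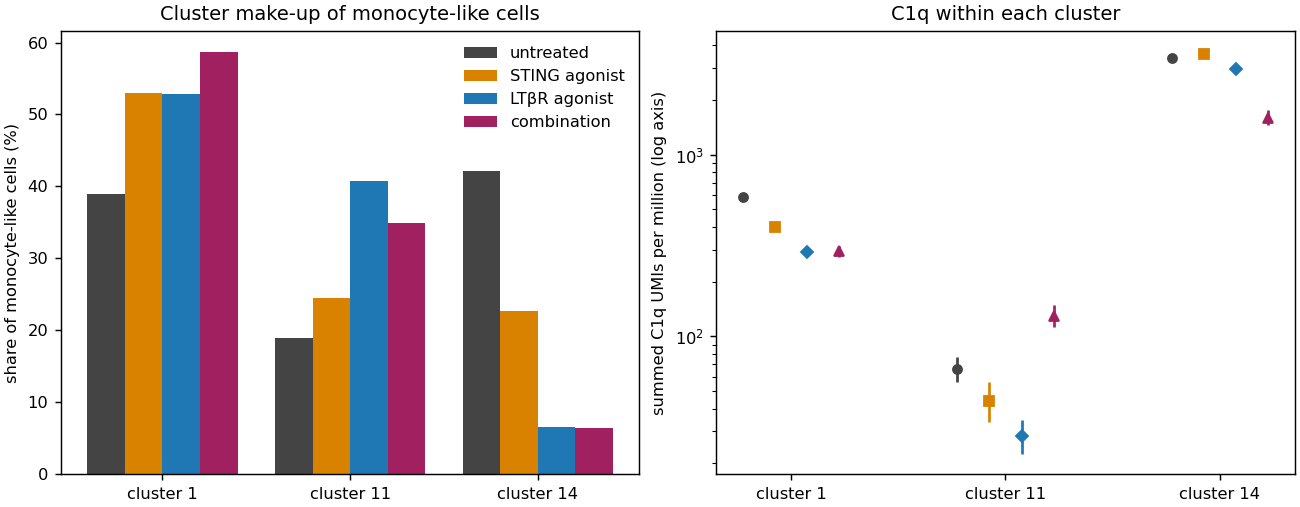
Left, share of monocyte-like cells (percent) in clusters 1, 11 and 14 in each library. Right, summed C1q (CPM, log axis) in the same clusters with the same colors: cluster 14 is 42.1% of the monocyte-like cells without treatment and 6.45% with the combination, and its C1q lies above that of cluster 1 in all 4 libraries.

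C3, the component at which the pathways meet, was spread more evenly over the macrophage and monocyte clusters than C1q and was highest in Cxcl9 cells. Its level there was 431, 529, 393 and 682 CPM. Trem2 cells held 258, 403, 222 and 366 CPM, monocyte-like cells 275, 298, 300 and 431 CPM, and Nos2 cells 235, 240, 177 and 241 CPM. The level in monocyte-like cells was above that in Nos2 cells in every library, while the range of Trem2 cells overlapped both. Monocyte-like cells held 35.4% of all C3 UMIs of the series.

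For the class as a whole C3 was 277, 334, 235 and 351 CPM, with ratios of 0.26 [0.19, 0.33], −0.23 [−0.30, −0.16] and 0.33 [0.26, 0.40]. The combination was thus level with the STING agonist alone (0.07 [−0.01, 0.15]) and 0.56 [0.49, 0.63] above the LTbR agonist alone. The combination's value was highest or level with the highest in Cxcl9, monocyte-like and Nos2 cells. It was 0.65 [0.47, 0.83] above untreated in Cxcl9 cells, 0.63 [0.52, 0.74] in monocyte-like cells and 0.04 [−0.16, 0.23] in Nos2 cells. In cluster 1 of the monocyte-like cells it was 442 against 244 CPM, a ratio of 0.83 [0.67, 0.99]. The combination's log2 ratio in the class exceeded the sum of the single agonists' ratios by 0.30 [0.23, 0.37].

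Neutrophil-like cells had C3 above background. Their level was 182, 193, 155 and 262 CPM, and 26.5% of them had a C3 UMI at a median of 2221 UMIs per cell, against 1.29% of T-like cells. After thinning the shares were 13.4% and 0.299%. The 12 macrophage marker genes summed to 1887 to 6176 CPM in these cells and were highest in the combination, which had 67 of them and the highest C3. The part of macrophage RNA in this value was not tested.

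Cfb, like C3, was highest in Cxcl9 cells, and it was low in Mrc1 and non-classical monocyte-like cells. Cxcl9 cells held 778, 765, 659 and 896 CPM. Trem2 cells held 349, 427, 359 and 379 CPM, Nos2 cells 309, 365, 282 and 421 CPM and monocyte-like cells 382, 459, 253 and 549 CPM. No library of these 3 reached the lowest Cxcl9 value, and the 3 overlapped with one another. In Mrc1 cells Cfb was 178 CPM with the LTbR agonist and 42.8 CPM with the combination, and in non-classical monocyte-like cells it was 29.8 to 89.0 CPM in the 3 libraries with at least 50 such cells.

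In the class, Cfb was 391, 446, 279 and 414 CPM, and its ratios were 0.19 [0.13, 0.25], −0.47 [−0.53, −0.41] and 0.08 [0.02, 0.14]. The sign of the last value depends on how cells are weighted: it was −0.11 for the mean over cells and −0.20 after thinning. Monocyte-like cells differed more, with ratios of 0.26 [0.16, 0.35], −0.58 [−0.68, −0.48] and 0.51 [0.42, 0.61]. There the combination was 1.09 [0.97, 1.21] above the LTbR agonist alone. In cluster 1 of these cells Cfb was 379, 534, 341 and 787 CPM, and the ratio for the combination was 1.03 [0.91, 1.16]. The Cfb ratio of the combination exceeded the sum of the single ratios by 0.37 [0.30, 0.43] in the class. The excess was 0.83 in monocyte-like cells, 0.46 in Cxcl9 cells and 0.33 in Nos2 cells. In Trem2 cells the difference had the opposite sign, at −0.21 [−0.38, −0.03].

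Cfp, properdin, was shared between macrophages and dendritic cells, unlike the other members. Dendritic-like cells held 27.8% of its UMIs and macrophage- or monocyte-like cells 63.2%. The Cd209a dendritic-like cluster had the highest level among clusters with at least 50 cells in each library, at 499, 477, 531 and 485 CPM, and 83.9% of its cells had a Cfp UMI. The ratios there were −0.06 [−0.22, 0.09], 0.09 [−0.04, 0.21] and −0.04 [−0.18, 0.10], all within counting error of untreated. With 1 library per group, these bounds set no limit on a treatment difference. cDC1-like cells held 127 CPM in the untreated library, the only library with at least 50 of them, and 101 to 143 CPM over all libraries. Mature dendritic-like cells held 14.8 to 45.6 CPM, the lowest of the dendritic-like clusters.

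In the macrophage- or monocyte-like class Cfp was the only member above untreated in all 3 treated libraries. It was 151, 207, 193 and 197 CPM, with ratios of 0.43 [0.34, 0.52], 0.34 [0.26, 0.42] and 0.36 [0.27, 0.45], and the combination was within counting error of the STING agonist (−0.07 [−0.16, 0.03]) and of the LTbR agonist (0.03 [−0.06, 0.12]). Nos2 cells had ratios of 0.35, 0.30 and 0.45 and Cxcl9 cells 0.44, 0.40 and 0.44. Trem2 cells, at 219, 284, 221 and 306 CPM, were level with untreated under the LTbR agonist (0.01 [−0.18, 0.21]). The combination's ratio in the class minus the sum of the single ratios was −0.40 [−0.49, −0.31]. Neutrophil-like cells held 81.7, 144, 90.2 and 128 CPM of Cfp, with a UMI in 22.3% of cells against 2.11% of T-like cells.

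C3ar1, the C3a receptor, was lower in both libraries given the LTbR agonist. In the class it was 204, 237, 135 and 127 CPM, and the share of cells with a UMI was 59.1, 62.9, 42.3 and 37.8%. The ratios were 0.21 [0.13, 0.29], −0.56 [−0.64, −0.48] and −0.65 [−0.74, −0.55], and the combination was level with the LTbR agonist alone (−0.09 [−0.19, 0.02]). In Nos2 cells it was 256, 288, 173 and 166 CPM, in Cxcl9 cells 279, 264, 213 and 149 CPM and in monocyte-like cells 164, 195, 97.9 and 93.2 CPM. In all 3 the 2 libraries given the LTbR agonist were the lowest. Trem2 cells, at 243, 286, 204 and 221 CPM, had the same 2 libraries lowest with smaller differences, and the interval of the combination spanned 0 (−0.13 [−0.36, 0.09]). In cluster 1 of the monocyte-like cells the ratio under the LTbR agonist was −0.10 [−0.30, 0.11], against −0.69 [−0.84, −0.53] for all monocyte-like cells, whose mix of clusters differed between libraries as given above. Neutrophil-like cells held 24.7 to 39.3 CPM and the Cd209a dendritic-like cluster 9.6 to 15.0 CPM.

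In the Cd209a dendritic-like cluster C1q was above untreated in both libraries given the LTbR agonist, where monocyte-like cells were below it. With the STING agonist C1q was lower in both clusters. The combination was highest in the Cd209a cluster. Summed C1q was 424, 256, 796 and 2450 CPM, and the log2 ratios were −0.71 [−0.90, −0.51], 0.89 [0.77, 1.01] and 2.50 [2.40, 2.60]. Of the 7 members, 3 were past 1.5-fold with the STING agonist (C1qa, C1qc and Cfb, all lower), against 2.91% of 7529 genes. With the LTbR agonist 4 were (the C1q chains and Cfb, all higher), against 1.91%. With the combination 5 were (the C1q chains, C3 and Cfb, all higher), against 5.11%. Cfb was 50.2, 22.7, 81.1 and 199 CPM and C3 was 21.9, 18.5, 34.9 and 92.6 CPM in this cluster.

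These levels came from few cells. Of the 969 cells, 110 (11.4%) had 10 or more C1q UMIs, and they held 97.3% of the cluster's C1q UMIs. They were 23 of 392, 6 of 133, 32 of 271 and 49 of 173 cells, or 5.87% [3.76, 8.67], 4.51% [1.67, 9.56], 11.8% [8.22, 16.3] and 28.3% [21.7, 35.7]. Of the dendritic markers only Cd209a and Flt3 were read in them, and both were scarce. Cd209a had a UMI in 3.64% against 30.5% of the other cells, and Flt3, the receptor that marks dendritic cells, in 8.18% against 38.6%. In the combination 0 of the 49 had a UMI of either, which allows a share of cells with a UMI of up to 6.12% and sets no limit on the share that express these genes. Csf1r, the receptor for the macrophage growth factor, had a UMI in 96.4% against 61.4% and Apoe in 63.6% against 9.90%. Other macrophage markers were seen in fewer of them, Ms4a7 in 11.8% and Adgre1 in 21.8%, against 79.3% and 69.2% of the Trem2 cells with 10 or more C1q UMIs.

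The other members but Cfp split by the same cells. Cfb had a UMI in 73.6% of the C1q-high cells and 17.9% of the rest, C3 in 50.9% and 10.8%, and C3ar1 in 36.4% and 4.19%. Cfp had a UMI in 95.5% and 82.4%, but its level was lower in the C1q-high cells, at 412 against 517 CPM. None of the 110 had a doublet score over 0.2, which allows up to 2.73%, and their median depth was 15028 UMIs against 11633. The 12 macrophage markers together were at 1468, 1851, 1994 and 2753 CPM in the cluster with none at 0, while the dendritic markers summed to 1136, 1229, 902 and 925 CPM. Without the C1q-high cells, a choice made after seeing them, the C1q ratios were 0.18, 0.03 and 0.94. Since these cells were picked by C1q itself and held nearly all of it, these ratios describe the rest and test nothing. Cd209a and Flt3, the only dendritic markers read in the C1q-high cells, were scarce, so the dendritic name is in doubt for them. Their Cfp level was between that of the rest of the cluster and the 250 CPM of the Trem2 cells with 10 or more C1q UMIs. The type of these cells was not settled.

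**Figure D5:**
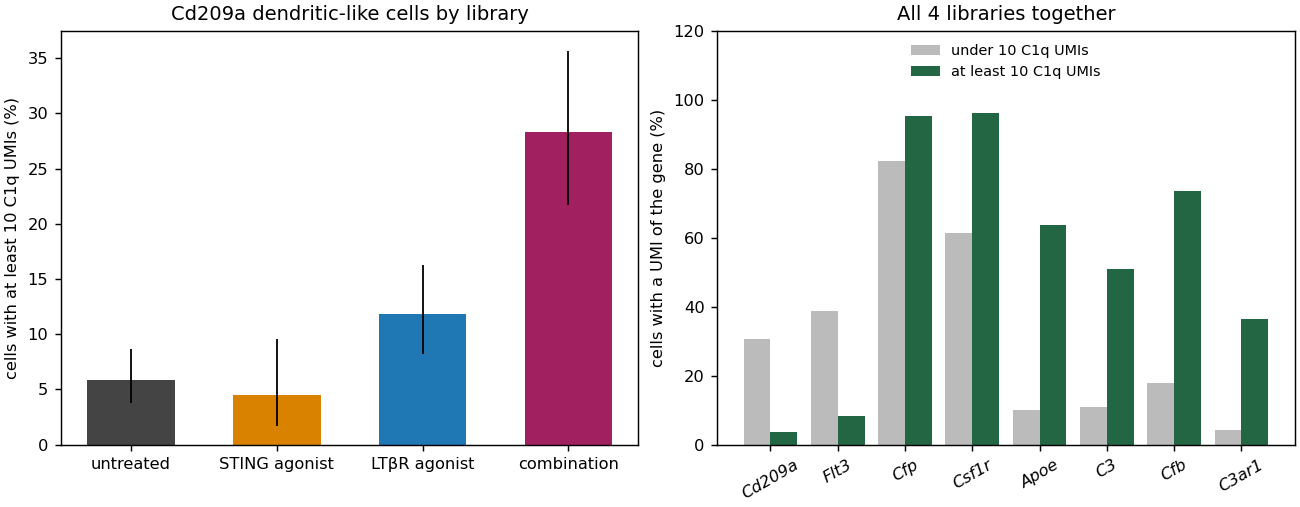
Left, share of cells of the Cd209a dendritic-like cluster (percent) with 10 or more C1q UMIs in each library, with exact binomial 95% bars. Right, share of C1q-high and other cells with a UMI of dendritic, macrophage and complement genes over the 4 libraries: the C1q-high share is 28.3% in the combination against 5.87% untreated, and Cd209a and Flt3 are scarce in those cells.

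Of 41 other complement genes on the list, 16 had at least 50 UMIs in 1 library over the macrophage-, neutrophil- and dendritic-like classes. In the macrophage- or monocyte-like class 0 of the 16 were past 1.5-fold with the STING agonist or the LTbR agonist. With the combination 2 were higher and 1 lower. The shares of all genes given above, 0.217, 2.00 and 3.33%, are of genes with a mean of at least 10 CPM. The 16 were not chosen by that filter, and with no filter the shares were 0.0899, 0.781 and 1.36%. C4b, a component of the classical and lectin pathways, was 13.9, 15.4, 18.7 and 29.4 CPM, with a ratio of 0.72 for the combination. Fcna, a ficolin of the lectin pathway, was 0.7, 5.1, 1.2 and 7.5 CPM, under the 10 CPM of that filter, with a ratio of 0.71. C5ar2, the second C5a receptor, was 18.6, 14.2, 10.1 and 6.1 CPM, with a ratio of −0.83. C5ar1, the main C5a receptor, had the same order as C3ar1 in this class, at 133, 156, 105 and 90.4 CPM, and was highest in neutrophil-like cells, at 521 CPM over the 4 libraries. The chains of complement receptor 3 were Itgam, with ratios of −0.02, 0.04 and −0.11, and Itgb2, with 0.31, 0.35 and 0.38. The median ratio of the 16 genes was 0.06, 0.05 and 0.02.

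The genes whose levels were most like each member were ranked by Pearson's r of log2 levels over 34 sums of cells, each 1 cell cluster in 1 library, and 7578 genes. These sums share libraries and depth, so r is a description. Summed C1q was most like Itga9 (0.91), Mertk (0.91), a receptor for the uptake of dead cells, and Myo1e (0.91). C3 was most like Pla2g7 (0.91), Prdm1 (0.90) and Prdx5 (0.90), and Cfb was most like Cmklr1 (0.91), the chemerin receptor, Hivep3 (0.90) and Mlkl (0.90). C3ar1 was most like Ecm1 (0.97), Arg1 (0.96), which encodes arginase, and Stab1 (0.94), and Cfp was most like Tbxas1 (0.87), thromboxane synthase, Gsn (0.87) and Rab24 (0.85). Between members, r was 0.85 for C3 and Cfb and 0.20 for C3 and Cfp.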

How the data were processed

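The authors deposited UMI counts per gene and cell (raw counts, not normalized) from 5′ droplet libraries of sorted CD45+ cells, made with Cell Ranger 7.1.0 on mm10 per the labels and the methods. The barcode suffix gave the library. Cells with 300 to 5000 genes and at most 6% mitochondrial counts were kept, as in the methods (23011 of 24839). Counts were log-normalized and clustered with scanpy 1.11.5 (2000 variable genes, 30 components, Leiden resolution 1) without the complement genes and the V, D and J segments of immunoglobulin and T cell receptor genes. Clusters were named from marker lists; the naming thresholds were set after the clusters were seen. Doublet scores from Scrublet were recorded and no cell was removed by them. Pairs of libraries shared 33 to 61 barcode sequences.

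Counts were summed per cluster and library and given as CPM with exact Poisson intervals, and shares with exact Clopper-Pearson intervals (scipy 1.17.1), both at 95%. Ratios are of CPM plus 10, and their interval sets each exact bound against the opposite bound of the other library, so it is not itself an exact 95% interval. The interval of a combination's ratio minus the sum of the single ratios is an approximate one from the standard error of the counts. For a count of no cells, the share allowed was approximated as 3 divided by the number of cells. With 1 library per group no test was made and a gene was counted when past 1.5-fold. Genes with a mean under 10 CPM over the 4 libraries were left out of the background. The ratio step was tested on simulated data. Library totals were 60770280, 32529174, 56877525 and 42710099 UMIs. Levels are not scaled by transcript length, so a gene is compared with itself across cells. The genes described, the marker lists and the list of other complement genes were chosen with earlier results of these data known. The 3 genes most like each member by Pearson's r were named by rule, as was each member. Monocyte cluster 14 and the C1q-high cells of the Cd209a cluster were singled out after their values were seen. Some items are not reported here.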

Additional observations from a re-analysis of the deposited data

Results flagged for a closer look

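Clusters differed in the direction of summed C1q against untreated. For each treatment, the widest gap was taken between clusters with at least 50 cells and 50 UMIs in both libraries that moved in opposite directions. The differences were not tested, since each group was 1 library.

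With the LTbR agonist, the log2 ratio was 0.89 in the Cd209a dendritic-like cluster and −2.20 in monocyte-like cells, a difference of 3.10. With the combination, the ratios were 2.50 and −2.41 in the same clusters, a difference of 4.92. Cluster 14 was 42.1% of the monocyte-like cells untreated, 6.51% with the LTbR agonist and 6.45% with the combination. Without cluster 14, chosen after its values were seen, the monocyte-like ratios were −1.15 with the LTbR agonist and −0.80 with the combination. In the Cd209a cluster 110 of 969 cells held 97.3% of the C1q UMIs, and Cd209a and Flt3 were scarce in them. The ratios of that cluster thus cannot be read as those of a dendritic cell type. With the STING agonist, the ratio was 0.69 in mature dendritic-like cells and −0.77 in the re-clustered neutrophil-like cells, a difference of 1.46. C1q in neutrophil-like cells was not separable from background, so its direction there cannot be read, and in the first clustering the neutrophil-like class was at 221 CPM untreated and 28.1 CPM with the STING agonist. In mature dendritic-like cells, 10 of 392 cells (2.55%) held 88.7% of the C1q UMIs, and 4 of the 10 had a doublet score over 0.2, against 16 of all 392. In the untreated library 5 of 165 cells held 92.3% of the C1q UMIs, and 4 of the 5 were over that score. In the STING agonist library 2 of 53 cells held 95.5%, and 0 of the 2 were over it. The part of these few cells in the difference was not tested.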

How the results depend on the processing

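Summed C1q in the macrophage- or monocyte-like class stayed above untreated with the STING agonist and below it with the LTbR agonist under all 12 alternatives, while the combination changed sign under 1. In the order STING agonist, LTbR agonist and combination, with main values of 0.30, −0.66 and −0.34, the log2 ratios were 0.27, −0.75 and −0.38 as a mean of CPM per cell, 0.18, −0.42 and −0.10 with the same subset weights, 0.28, −0.54 and −0.14 with the class taken from marker scores per cell, 0.24, −0.76 and −0.39 thinned to 1000 UMIs, and 0.27, −0.19 and 0.044 with the same cluster weights, which were added after seeing the data. For the LTbR agonist and the combination they were −0.62 and −0.21 at resolution 0.5 and −0.63 and −0.24 at resolution 2. The combination was at −0.38 with median-of-ratios size factors and −0.29 with no mitochondrial limit.

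The 3 members past 1.5-fold with the LTbR agonist became 0 with either set of weights and with marker scores. The 1 with the combination became 0 with either set of weights and with a pseudocount of 50 CPM. With no filter on low values the share of genes past 1.5-fold was 0.0899, 0.781 and 1.36%. In monocyte-like cells without cluster 14 the C1q ratios were −0.52, −1.15 and −0.80. In the Cd209a cluster without cells of 10 or more C1q UMIs they were 0.18, which reversed the sign, 0.032 and 0.94. Leaving out cells with a doublet score over 0.2 gave −0.71, 0.89 and 2.50. Of 252 values of single members in the class under alternatives, 4 changed sign, all for the combination: C1qa (0.13) and C1qc (0.11) with the same cluster weights, and Cfb as a mean per cell (−0.11) and thinned (−0.20). The causes were not tested. No paired analysis was possible because each group was 1 library, and none could be left out. At these depths, genes near 10 CPM had wide counting intervals.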
